A study of Mus musculus with 9 samples.

Results

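The genes described here are the 9 named members of the hypoxia-inducible factor (HIF) pathway in mouse round spermatids (RS): the HIF alpha subunits Hif1a, Epas1 and Hif3a, their partner Arnt, the prolyl hydroxylases Egln1, Egln2 and Egln3, the asparaginyl hydroxylase Hif1an and the ubiquitin ligase subunit Vhl. They were taken by gene name from a table of 55414 genes, and all 9 were found. Of these, 8 reached 10 counts over all libraries and entered the test, with 25128 genes in all. Egln3, with 8 counts in all, was not tested.

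HIF alpha subunits are made continuously and, when oxygen is available, are hydroxylated on prolines by the EGLN enzymes, after which VHL binds them and marks them for degradation. HIF1AN hydroxylates an asparagine of the alpha subunit and so keeps coactivators away, and an alpha subunit that escapes both pairs with ARNT and binds hypoxia response elements. EGLN enzymes and HIF1AN use 2-oxoglutarate as a cosubstrate, a molecule close in structure to L-2-hydroxyglutarate (L-2HG), which lactate dehydrogenase can form. Messenger RNA was measured here, not hydroxylation, enzyme activity or HIF protein.

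RS cells came from adult male Stra8-Tom mice, more than 10 weeks old per the methods, on a C57Bl/6 background, in which the Stra8-iCre transgene switches on a CAG-driven tdTomato reporter in the germ line. The labels give the genotype as WT, and every group carried both transgenes. Cells were sorted by red fluorescence and forward scatter and incubated for 24 h in medium with lactate, pyruvate and dialyzed serum. The medium held vehicle (0.15% DMSO), 24 mM oxamate, an inhibitor of lactate dehydrogenase, with the same DMSO, or oxamate at that dose with octyl-L-2HG at 0.3 mM, an L-2HG ester that enters cells, again with the same DMSO. No group received octyl-L-2HG alone. Each group had 3 libraries, numbered 1 to 3 (vehicle), 4 to 6 (oxamate) and 7 to 9 (both compounds). The study incubated the cells in triplicate, and neither the labels nor the study's text used here says whether the 3 libraries of a group came from separate mice, so the p-values measure the spread between these libraries, which may be technical.

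The libraries held from 32339533 to 39888396 counts. Of 17 round spermatid markers, 16 were in the table, each with a mean of at least 100 counts, and their summed level was 3933 to 4031 CPM (counts scaled to a library total of 1000000) in vehicle, 3756 to 3832 in oxamate and 3348 to 3429 with both compounds. The summed levels of 10 spermatocyte markers were 678 to 757, 653 to 719 and 660.2 to 693 CPM, and those of 8 spermatogonia markers stayed between 7.38 and 8.52 CPM. Endothelial markers (9 of 10 with at least 10 counts) summed to 17.8 to 19.1, 18.0 to 18.7 and 14.1 to 15.7 CPM, most of it Vwf, with Emcn at 1 count in all. Sertoli cell markers (6 of 10) lay between 3.27 and 5.16 CPM with Fshr at 0, Leydig cell markers (5 of 8) between 0.771 and 1.2 CPM, and macrophage markers (7 of 10) between 4.04 and 6.73 CPM with Lyz2 at 0. Peritubular myoid markers (6 of 6) summed to 169.7 to 173, 161 to 171 and 127 to 135 CPM, nearly all of it Actg2 at 153 CPM, while Acta2 was at 0.757 CPM. Oxamate library 4 stood apart from libraries 5 and 6 (a chi-square per gene of 18.7 and 23.3 against 2.1 between libraries 5 and 6). In vehicle, library 1 gave 11.9 and 11.3 against libraries 2 and 3, which gave 6.48 between them. The numbers of list calls that changed without oxamate library 4 are given with the pathway lists, where the genes or some of them are named.

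Levels of the 9 members differed by orders of magnitude on a scale that allows genes to be compared, CPM per kb of exon. Egln2, the prolyl hydroxylase also called PHD1, led with a mean of 220.6 over the 9 libraries (range 203.6 to 248.1). Vhl followed at 20.0 (14.9 to 24.2), Hif1an at 5.97 (5.11 to 6.88) and Arnt at 2.11 (1.8 to 2.4). The 3 alpha subunits and the other prolyl hydroxylases lay far lower: Hif3a at 0.291 (0.225 to 0.363), Epas1, which encodes HIF-2 alpha, at 0.157 (0.127 to 0.22), Egln1 at 0.0587 (0.014 to 0.1), Hif1a at 0.0431 (0.0213 to 0.0601) and Egln3 at 0.00933 (0 to 0.0333). The ranges of neighbours did not overlap from Egln2 down to Egln1, so that this order was the same in each library, whereas Egln1 and Hif1a overlapped, as did Hif1a and Egln3. The mean count of Egln2 ranked above 99.0% of the genes tested, that of Vhl above 86.8% and that of Hif1a above 30.0%.

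**Figure D1:**
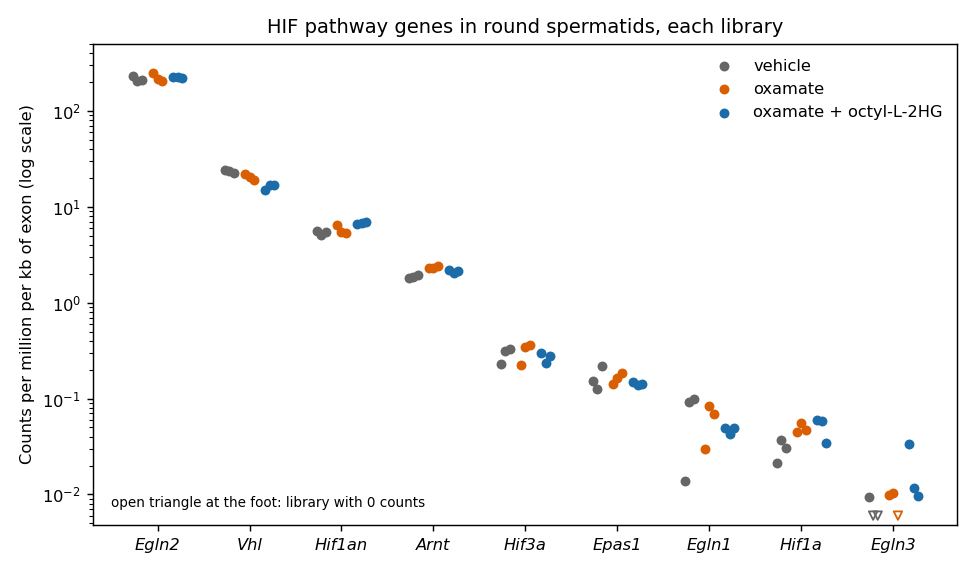
Level in CPM per kb of exon (log scale) of the 9 HIF pathway genes, each point 1 library, coloured by group. Egln2 lies near 221, Hif1a and Egln1 reach at most 0.1, and open triangles mark the 3 libraries in which Egln3 had 0 counts.

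RefSeq promoter windows (GRCm38.p6, 250 bases before to 50 after the transcription start) were matched by symbol for 8 members in 9 windows, 2 of them for Egln2. The windows of the most abundant member and of the 3 members that differed between groups are shown, with the core of the hypoxia response element in capitals. The core was searched as ACGTG or GCGTG on both strands, with overlapping matches merged, and 43.8% of all 32851 windows of the same length held at least 1. The windows are Egln2 chr7:27166753-27167052 (minus strand), Arnt chr3:95434140-95434439 (plus), Hif1an chr19:44562604-44562903 (plus) and Vhl chr6:113623744-113624043 (plus), each printed 5′ to 3′ in the direction of transcription.
Egln2: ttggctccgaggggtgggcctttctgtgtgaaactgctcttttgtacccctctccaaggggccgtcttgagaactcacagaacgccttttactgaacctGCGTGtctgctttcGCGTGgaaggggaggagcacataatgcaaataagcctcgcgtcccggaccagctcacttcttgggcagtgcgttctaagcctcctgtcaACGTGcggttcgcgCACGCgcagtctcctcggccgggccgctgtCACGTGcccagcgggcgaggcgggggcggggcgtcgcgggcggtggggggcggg
Arnt: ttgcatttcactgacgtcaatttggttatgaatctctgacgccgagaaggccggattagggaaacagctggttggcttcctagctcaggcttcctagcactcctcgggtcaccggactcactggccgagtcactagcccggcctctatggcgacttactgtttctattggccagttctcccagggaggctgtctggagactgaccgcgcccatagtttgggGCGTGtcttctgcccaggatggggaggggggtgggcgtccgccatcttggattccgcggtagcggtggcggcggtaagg
Hif1an: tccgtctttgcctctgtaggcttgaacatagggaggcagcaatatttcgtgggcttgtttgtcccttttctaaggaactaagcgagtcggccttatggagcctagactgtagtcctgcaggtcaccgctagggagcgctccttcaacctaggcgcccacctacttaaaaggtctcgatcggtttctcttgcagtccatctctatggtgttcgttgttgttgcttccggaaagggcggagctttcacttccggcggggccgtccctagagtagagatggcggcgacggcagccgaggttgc
Vhl: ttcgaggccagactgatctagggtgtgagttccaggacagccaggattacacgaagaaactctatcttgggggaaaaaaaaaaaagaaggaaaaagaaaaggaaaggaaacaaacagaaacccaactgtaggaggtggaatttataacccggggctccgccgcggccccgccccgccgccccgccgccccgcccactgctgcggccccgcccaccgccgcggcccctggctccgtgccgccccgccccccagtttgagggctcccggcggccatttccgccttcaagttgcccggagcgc
The Egln2 window held 5 cores, beginning 151, 137, 48, 34 and 4 bases before the start, and 0.767% of all windows held as many or more. Each core contains the dinucleotide CG, of which this window had 29 against a median of 7 over all windows. The other Egln2 window held 1 core, the Arnt window 1, beginning 29 bases before the start, the Egln3 window 1, beginning 229 bases before the start, and the windows of Hif1a, Hif3a and Egln1 2 each, whereas these letters were not in the windows of Vhl and Hif1an.

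Egln2, the prolyl hydroxylase that made up nearly all prolyl hydroxylase RNA in these cells, did not pass the test in any comparison. Its normalized counts were 22868, 19782 and 21020.5 in vehicle, 25015, 21270.3 and 20341 in oxamate and 24087, 23638 and 22815 with both compounds. The groups overlapped, and the highest value was in oxamate library 4. Against vehicle, the log2 fold change was 0.07 (95% interval -0.09 to 0.23) with oxamate and 0.13 (-0.03 to 0.28) with both compounds, and against oxamate it was 0.06 (-0.10 to 0.21) with both compounds, with adjusted p of 0.701, 0.279 and 0.733. In the GENCODE M21 annotation Cyp2t4, on the opposite strand, shares 11 exon bases with Egln2, and it had 24 counts in all.

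Egln1 (PHD2) and Egln3 (PHD3), the other prolyl hydroxylases, were near the limit of detection. Egln1 had 2, 12 and 14 counts in vehicle, 4, 11 and 8 in oxamate and 6, 5 and 7 with both compounds. The spread within the vehicle group covered all other libraries, and the intervals of its log2 fold changes ran from -1.18 to 0.87 for oxamate against vehicle and from -1.53 to 0.64 for both compounds against vehicle. Egln3 had 1, 0 and 0 counts in vehicle, 1, 1 and 0 in oxamate and 3, 1 and 1 with both compounds. A count of 0 allows up to 3 counts in such a library, so no difference in Egln3 was detectable at this depth.

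Hif1a, which encodes HIF-1 alpha, had 5, 8 and 7 counts in vehicle, 10, 12 and 9 in oxamate and 12, 11 and 8 with both compounds. The oxamate libraries lay above the vehicle libraries, and those with both compounds overlapped them. The log2 fold change was 0.75 ± 0.38 (SE) with oxamate and 0.81 ± 0.38 with both compounds against vehicle (adjusted p = 0.327 and 0.158), with intervals of -0.05 to 1.55 and 0.02 to 1.61. An antisense gene, Gm15283, shares 330 exon bases with Hif1a on the opposite strand and had more counts than it: 74, 63 and 68 in vehicle, 60, 60 and 49 in oxamate and 39, 37 and 61 with both compounds. The library kit marked strand but the strand setting of the counting was not given in the sources used here, so reads from the shared bases cannot be told apart between them. Gm15283 did not pass the test either (both compounds against vehicle, log2 fold change -0.39 ± 0.17, adjusted p = 0.108).

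Hif3a was the most abundant alpha subunit gene per kb. Its product can compete with the other alpha subunits. Its normalized counts were 55.1, 72.0 and 79.7 in vehicle, 54.3, 81.8 and 86.6 in oxamate and 76.4, 58.8 and 68.3 with both compounds, and the 3 groups overlapped. Epas1 had 30.2, 24.6 and 44.0 in vehicle, 28.6, 32.7 and 36.2 in oxamate and 31.4, 28.8 and 29.0 with both compounds, again with overlapping groups. The log2 fold changes of Hif3a and Epas1 against vehicle were 0.11 and -0.02 with oxamate and -0.04 and -0.17 with both compounds, and none passed the test (the lowest adjusted p was 0.677).

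Arnt, the common partner of the alpha subunits, was the member that rose with oxamate. Normalized counts were 511, 518 and 559 in vehicle, 667, 646 and 682 in oxamate and 664, 616 and 632 with both compounds. The 3 vehicle libraries lay below all 6 treated ones, while the 2 treated groups overlapped. The group means were 529 ± 25.7 (SD, n = 3), 665 ± 18.1 and 637 ± 24.5, a rise of 26.0% with oxamate (log2 fold change 0.33 ± 0.08, adjusted p = 0.012) and of 18.6% with both compounds (0.25 ± 0.08, adjusted p = 0.0313) against vehicle. Between oxamate and both compounds the log2 fold change was -0.09 (interval -0.25 to 0.07, adjusted p = 0.563). Without vehicle library 1 or 2 the oxamate call was lost (adjusted p = 0.0503 and 0.0615), and the call with both compounds was lost without vehicle libraries 1 or 2 or any of libraries 7 to 9 (adjusted p = 0.0977, 0.0888, 0.122, 0.062 and 0.0791) and when libraries were scaled by total counts (log2 fold change 0.18, adjusted p = 0.111). In these samples fewer cells of a type and less RNA per cell cannot be told apart.

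The rise of Arnt stood among 5.19% of all tested genes that passed in oxamate against vehicle (3.97% higher, 1.22% lower), a comparison in which 1 of the 8 tested members passed. Long genes moved up in the treated groups: over 10696 genes with a mean of at least 100 counts, Spearman's rho across genes between exon length and log2 fold change was 0.31 for oxamate against vehicle, 0.17 for both compounds against oxamate and 0.35 for both compounds against vehicle. Arnt has the longest exon sequence of the members, 8007 bases. With a correction for exon length, which was added after the data were seen, its log2 fold change was 0.26 with oxamate (adjusted p = 0.0456) and 0.14 with both compounds (adjusted p = 0.237).

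Hif1an, which encodes the asparaginyl hydroxylase FIH, rose with both compounds. Normalized counts were 1310.5, 1171 and 1275 in vehicle, 1549, 1289 and 1241 in oxamate and 1664, 1674 and 1679 with both compounds. All 3 libraries with both compounds lay above the other 6, and oxamate libraries 5 and 6 lay within the vehicle range while library 4 lay above it. The means were 1252 ± 72.3, 1360 ± 166 and 1672 ± 7.63, so that Hif1an was 31.6% higher with both compounds than with vehicle (log2 fold change 0.40 ± 0.08, adjusted p = 0.00159) and 20.7% higher than with oxamate (0.27 ± 0.08, adjusted p = 0.0364). Oxamate against vehicle gave 0.12 (interval -0.05 to 0.30, adjusted p = 0.486). The difference from oxamate was 0.38 without oxamate library 4 (adjusted p = 7.95e-05), but it lost its call without library 5, 6, 7, 8 or 9 (adjusted p = 0.169, 0.163, 0.103, 0.116 and 0.119), when libraries were scaled by total counts (0.0637) and with the length correction (0.0519). The difference from vehicle kept its call in each of these fits.

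Vhl, which encodes the part of the ubiquitin ligase that recognises hydroxylated HIF alpha, fell with both compounds. Normalized counts were 2573, 2443 and 2415 in vehicle, 2383.5, 2161 and 2020.4 in oxamate and 1704, 1888 and 1859 with both compounds. The 3 groups did not overlap at all, with vehicle highest and both compounds lowest. The means were 2477 ± 84.3, 2188 ± 183 and 1817 ± 99.2. With both compounds Vhl was lower by 27.7% than with vehicle (log2 fold change -0.47 ± 0.08, adjusted p = 0.000132) and by 18.5% than with oxamate (-0.295 ± 0.08, adjusted p = 0.0138). Oxamate against vehicle gave -0.17 (interval -0.33 to -0.02, adjusted p = 0.224), and -0.245 with an adjusted p of 0.0134 when oxamate library 4 was left out. The difference between both compounds and oxamate lost its call without library 7 (adjusted p = 0.1) and was -0.22 without oxamate library 4 (adjusted p = 0.0156). With the length correction the log2 fold changes were -0.49 against vehicle and -0.30 against oxamate (adjusted p = 2.38e-05 and 0.00541). The summed round spermatid, endothelial and peritubular myoid markers given above were also lower with both compounds, and their part in the level of Vhl was not tested.

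**Figure D2:**
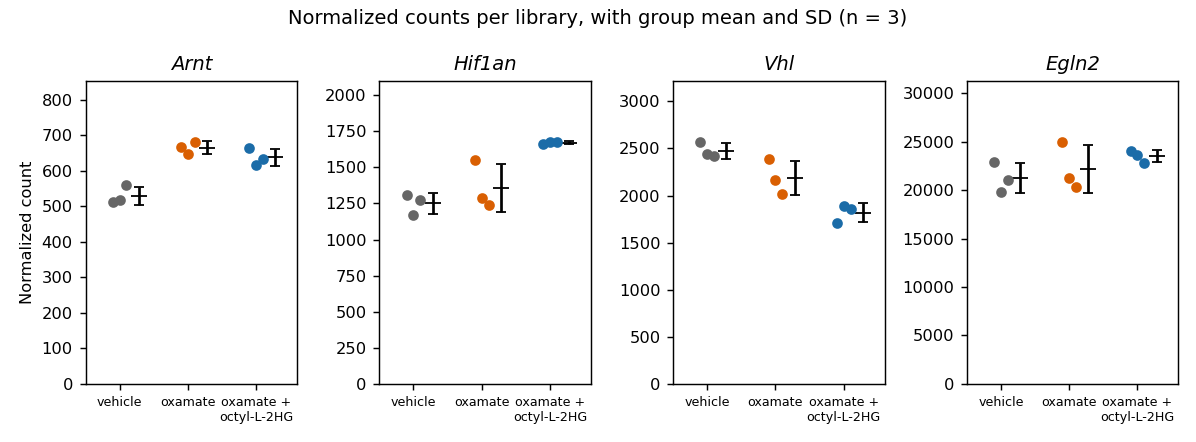
Normalized count (y axis, from 0) of Arnt, Hif1an, Vhl and Egln2 in each library of the 3 groups, with the group mean and SD (n = 3) beside the points. Arnt was higher in both treated groups, Hif1an was higher and Vhl lower with both compounds, and the groups of Egln2 overlapped.

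Counted over the members, both compounds against oxamate had 2 of 8 past the threshold, Hif1an higher and Vhl lower, beside 11.2% of all genes tested (3.18% higher, 8.06% lower). Both compounds against vehicle had 3 of 8, Arnt and Hif1an higher and Vhl lower, beside 18.0% of all genes (7.48% higher, 10.6% lower). The test for any difference among the 3 groups called the same 3 members, Vhl (adjusted p = 0.000414), Hif1an (0.00372) and Arnt (0.00916), beside 19.8% of all genes. Calls were more frequent among the 10715 genes with a mean of at least 100 counts, to which all 3 belong, at 9.67% for oxamate against vehicle, 19.8% for both compounds against oxamate and 29.5% for both compounds against vehicle. The comparisons share their groups and are not independent of each other.

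**Figure D3:**
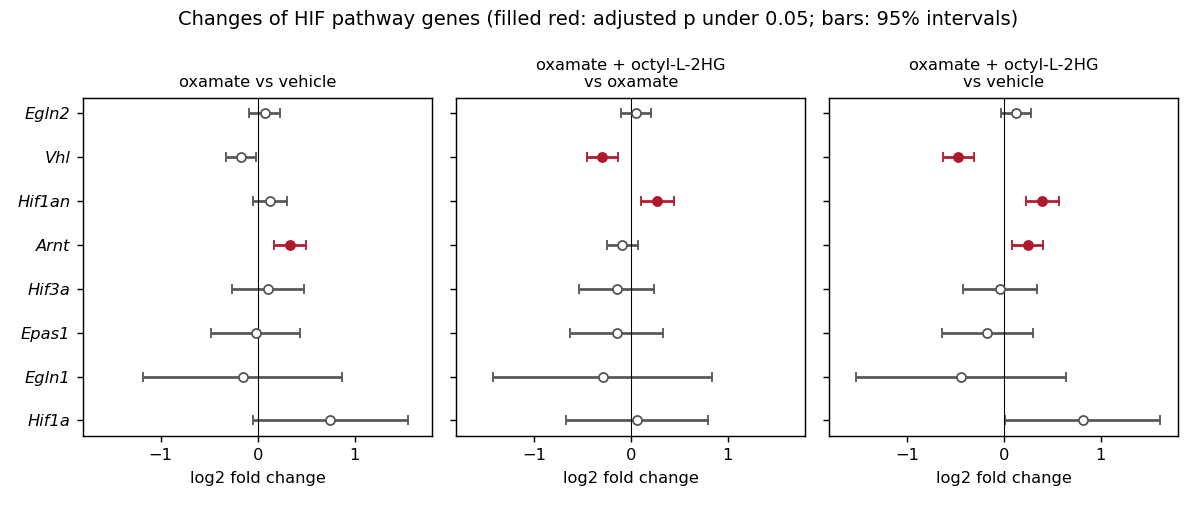
Log2 fold change (x axis) of the 8 tested members in the 3 pairwise comparisons, with 95% intervals and red filled points for an adjusted p under 0.05. The intervals of Egln2, Vhl, Hif1an and Arnt are narrow, while those of Egln1 and Hif1a span more than 1 log2 unit.

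The other components of the pathway were described from 7 lists holding 127 tested genes, chosen with earlier results of these data known. P4ha1, P4ha2 and Rbpj belong to more than a single list, and the totals do not count them again. Crebbp, Ep300, Ruvbl1, Kdm3a and Kdm5b are also in the study's own summary of chromatin genes affected in these RS cells. With oxamate against vehicle 13 rose and 1 fell, with both compounds against oxamate 4 rose and 14 fell, and with both compounds against vehicle 16 rose and 14 fell. These calls were 11.0%, 14.2% and 23.6% of the lists, beside 5.19%, 11.2% and 18.0% of all genes tested and 9.67%, 19.8% and 29.5% of genes with a mean of at least 100 counts, a mean that 70 of the 127 reached. Their median log2 fold changes were 0.044, -0.058 and 0.002, beside -0.011, -0.038 and -0.045 over all genes tested. With DESeq2 size factors the split for both compounds against oxamate was 8 higher and 12 lower, and with total counts as the scaling that for both compounds against vehicle was 12 higher and 19 lower with a median of -0.06. Over all genes tested 28.3% of the calls for both compounds against oxamate were higher, 37.7% with DESeq2 size factors and 14.3% with total counts. For both compounds against vehicle 41.4% were higher, and 26.8% with total counts. For oxamate against vehicle the 14 calls became 8 without vehicle library 1 or 3 or oxamate library 5 or 6, 6 without vehicle library 2, 9 without library 8 or 9, and 21 without oxamate library 4, when 9.28% of all genes were called. Of the 14 calls, 10 were shared with those 21 and 4 were lost (Pgam1, Rora, Angptl4 and Pdgfb). A further 11 were gained, 7 higher and 4 lower. The higher ones were Ep300 (log2 fold change 0.44, adjusted p = 0.000248), Pfkfb3 (0.23, 0.0192), Wsb1 (0.42, 0.000412), Os9, Fbxw7, Ncoa1 and Ogfod1. The lower ones were Gpi1 (-0.196, 0.0418), Eno1 (-0.258, 0.00927), Ruvbl2 (-0.229, 0.0157) and Elob (-0.232, 0.0193). For both compounds against oxamate the 18 calls became 11 without library 8 and 28 without oxamate library 4 (17.9% of all genes called), with 18 shared and with Kat5 (0.31, adjusted p = 0.000415), Limd1 (0.22, 0.0434), Pfkfb4 (0.37, 0.000792), Ero1a (-0.43, 0.0294), Kdm5b (-0.169, 0.0356) and Nos2 (-1.49, 0.0136) among the 10 gained. For both compounds against vehicle, which uses library 4 only for the estimate of spread, the 30 calls became 42 (25.1% of all genes called), with Crebbp (0.24, adjusted p = 0.00648), Wsb1 (-0.25, 0.0116) and Kdm5b (0.149, 0.0294) among the 12 gained.

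Among the 6 partners of VHL in its ubiquitin ligase, Eloc (elongin C), which binds VHL directly, fell with both compounds against vehicle (16.7% of the list, beside 18.0% of all genes). Its normalized counts were 3646, 3729 and 3405 with vehicle and 2852.5, 3033 and 3289 with both compounds, and these groups did not overlap. The log2 fold change was -0.25 ± 0.07 (adjusted p = 0.0146), a call that was lost without vehicle library 2 or library 7 or 8 (adjusted p = 0.0742, 0.107 and 0.0725). In edgeR's test of oxamate against vehicle 0 of the 6 passed, 2 were lower at an unadjusted p under 0.05, and DESeq2 called 0. When oxamate library 4 was left out, edgeR called Elob of this list lower with oxamate than with vehicle (log2 fold change -0.232, adjusted p = 0.0193). In that fit Elob was also called lower with both compounds than with vehicle (-0.169, adjusted p = 0.0301).

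Of 18 regulators of HIF turnover outside VHL, 7 rose and 1 fell with both compounds against vehicle, and 3 rose and 1 fell against oxamate. This was 44.4% and 22.2% of the list, beside 18.0% and 11.2% of all genes tested (29.5% and 19.8% of those with a mean of at least 100 counts). DESeq2 called 7 higher and 1 lower, and 4 higher and 0 lower. The 1 fall against oxamate, outside the naming rule and picked with its values known, was Siah1b, a ubiquitin ligase gene with a mean of 40.5 (-0.63, edgeR adjusted p = 0.0494), a call that held without vehicle library 1, oxamate library 4 or library 9 and was lost without each of the other 6 (adjusted p from 0.0563 to 0.233). The deubiquitinase gene Usp28 had 510.1 ± 15.5 normalized counts in vehicle, 539 ± 5.83 in oxamate and 701 ± 24.2 with both compounds. The libraries with both compounds lay above the others (log2 fold change against oxamate 0.355 ± 0.08, adjusted p = 0.00426, and 0.44 against vehicle). Usp8, another deubiquitinase gene and abundant in these cells, had means of 21744, 22306 and 27759, with a log2 fold change of 0.29 against oxamate (adjusted p = 0.013) that lost its call without library 7 or 8 (adjusted p = 0.0924 and 0.0545). Limd1, whose product bridges prolyl hydroxylases and VHL, rose from 773 ± 54.6 with vehicle to 1060 ± 70.0 with both compounds (0.43 ± 0.08, adjusted p = 0.000542). The 1 fall against vehicle was Siah1a, from 220.0 ± 21.1 to 169.5 ± 9.77 with both compounds (-0.395 ± 0.108, adjusted p = 0.0127). That call held in 6 of 9 fits without 1 library. For oxamate against vehicle 0 of the 18 passed in edgeR's test, 4 were higher at an unadjusted p under 0.05, and DESeq2 called 0. Without oxamate library 4, edgeR called Os9 (0.309, adjusted p = 0.0122) and Fbxw7 (0.214, adjusted p = 0.0468) higher in this comparison.

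Of 12 coactivators and corepressors of HIF, 3 (25.0%) rose with oxamate against vehicle, beside 5.19% of all genes called. Among genes with a mean of at least 100 counts, which 10 of the 12 reached, 9.67% were called. With both compounds 1 rose and 3 fell against oxamate (33.3%, beside 11.2% and 19.8%). Against vehicle 3 rose and 1 fell (33.3%, beside 18.0% and 29.5%). The 3 that rose with oxamate included the steroid receptor coactivator gene Ncoa2, from 2562 ± 248 to 3566 ± 325 normalized counts (log2 fold change 0.48 ± 0.08, adjusted p = 0.000542). With both compounds Ncoa2 was at 3033 ± 43.6. Another of the 3, Crebbp, which encodes the acetyltransferase CBP, had a log2 fold change of 0.36 ± 0.09 (adjusted p = 0.0145) but lost its call without vehicle library 1 or 2 or oxamate library 5 or 6 (adjusted p = 0.0808, 0.0853, 0.0766 and 0.0593) and in a fit of the 2 groups alone (0.0656). Ep300, which encodes the acetyltransferase p300 that HIF1AN keeps from binding HIF alpha, was at 845 ± 102 in vehicle, 1044 ± 187 in oxamate and 778 ± 44.7 with both compounds, lower with both compounds than with oxamate (-0.45 ± 0.11, adjusted p = 0.00862). That call was lost without oxamate library 5 or 6 or library 9 (adjusted p = 0.0502, 0.0515 and 0.0652). Cdk8, a kinase of the Mediator complex, rose from 772 ± 86.0 with oxamate to 1016 ± 23.6 with both compounds (0.37 ± 0.08, adjusted p = 0.00484), and Pkm, the pyruvate kinase gene, fell from 2664 ± 123 to 2148 ± 15.0 (-0.34 ± 0.07, adjusted p = 0.0021). Kat5, another acetyltransferase gene, was at 2919 ± 163 with vehicle and 3708 ± 4.02 with both compounds (0.32 ± 0.07, adjusted p = 0.00363).

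Of 11 other bHLH-PAS factors, the protein family of HIF alpha and ARNT, 1 (9.09%, beside 5.19% of all genes tested and 9.67% of those with a mean of at least 100 counts) rose with oxamate: Arntl, the clock factor BMAL1, with 187, 190.5 and 175 normalized counts with vehicle and 246, 221 and 295 with oxamate (log2 fold change 0.465 ± 0.11, adjusted p = 0.0132). Its call was lost without vehicle library 3 or oxamate library 6 (adjusted p = 0.0743 and 0.0921). Of 19 genes of other protein hydroxylases, mostly prolyl and lysyl ones, which like the EGLN enzymes use 2-oxoglutarate or serve such enzymes (Asph, Riox1 and Riox2 act on other residues), 2 rose with oxamate and 2 with both compounds against vehicle, 10.5% of the list each time, beside 5.19% and 18.0% of all genes called. P4hb, the beta subunit of collagen prolyl hydroxylase, rose in both, from 273, 280 and 267 counts with vehicle to 448, 356 and 374 with oxamate and 415.5, 446 and 412 with both compounds. Its 6 treated libraries lay above the 3 vehicle libraries, with log2 fold changes of 0.53 ± 0.10 and 0.61 ± 0.10 (adjusted p = 0.00191 and 0.00012), and without oxamate library 4 the first was 0.42 (adjusted p = 0.00229). The other call with oxamate, P4ha2 of collagen prolyl hydroxylase (0.35 ± 0.10, adjusted p = 0.0433), held without oxamate library 4 but was lost without each of the other 8 libraries (adjusted p from 0.0518 to 0.144) and in DESeq2 (0.0638). The other call with both compounds, Jmjd6, a lysyl hydroxylase (0.22 ± 0.07, adjusted p = 0.036), was lost without vehicle library 1 or 2 or any of libraries 7 to 9 (adjusted p from 0.0531 to 0.134), with total counts (0.126) and with the length correction (0.156).

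HIF targets of glycolysis and lactate handling held 20 tested genes, of which 2 (10.0%) rose with oxamate against vehicle, beside 5.19% of all genes called, while DESeq2 called 3 higher and 1 lower. The neuronal-type glucose transporter gene Slc2a3 changed more than the other, with 11124, 10488.5 and 10247 normalized counts in vehicle, 25494.5, 20497.5 and 19988 in oxamate and 15685, 15659 and 16172.5 with both compounds. The 3 groups did not overlap, oxamate was highest and both compounds lay between. The log2 fold change was 1.05 ± 0.08 for oxamate against vehicle (adjusted p = 4.86e-08), -0.50 ± 0.08 for both compounds against oxamate (adjusted p = 0.000262) and 0.555 ± 0.08 for both compounds against vehicle (adjusted p = 3.42e-05), and without oxamate library 4 the first was 0.93 and the next -0.37. The other rise, Pgam1, a phosphoglycerate mutase gene, was 0.46 ± 0.13 (adjusted p = 0.0475) but 0.25 without oxamate library 4 (adjusted p = 0.198), and it kept its call without oxamate library 5 or 6 but lost it without each of the other 6 libraries (adjusted p from 0.0726 to 0.196). Among the 3 (15.0%) that fell with both compounds against oxamate, beside 11.2% of all genes called, were Slc2a3 and Pfkfb3, which encodes an enzyme that makes the activator of phosphofructokinase, from 1562 ± 40.3 to 1250.3 ± 16.8 (-0.35 ± 0.07, adjusted p = 0.00183). Against vehicle 2 rose and 2 fell with both compounds (20.0%, beside 18.0% of all genes), with Pfkfb4, of the same enzyme family, at 0.39 ± 0.09 (adjusted p = 0.00329) and Gpi1, glucose phosphate isomerase, at -0.44 ± 0.07 (adjusted p = 5.24e-05). Of genes with a mean of at least 100 counts, which 13 of the 20 reached, 9.67% were called for oxamate against vehicle. For both compounds 19.8% of such genes were called against oxamate and 29.5% against vehicle. Ldha, a classical HIF target, had a mean of 43485 normalized counts and log2 fold changes of -0.11, 0.04 and -0.06 in the 3 comparisons, with none past the threshold.

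HIF targets outside glycolysis held 44 tested genes. With oxamate 6 rose and 1 fell against vehicle, and with both compounds 2 rose and 9 fell against vehicle while 7 fell against oxamate. These were 15.9%, 25.0% and 15.9% of the list, beside 5.19%, 18.0% and 11.2% of all genes tested. Of genes with a mean of at least 100 counts, which 19 of the 44 reached, 9.67%, 29.5% and 19.8% were called. DESeq2 called 3 higher and 0 lower for oxamate against vehicle, 3 and 8 for both compounds against vehicle, and 1 and 6 against oxamate. Kdm4b, a 2-oxoglutarate-dependent histone demethylase gene, had 204, 210.4 and 235 normalized counts with vehicle, 181, 219 and 174 with oxamate and 114.5, 128 and 119.8 with both compounds. The libraries with both compounds lay below the other 6 (log2 fold change -0.86 ± 0.12 against vehicle and -0.69 ± 0.12 against oxamate, adjusted p = 2.29e-05 and 0.000699). Rora, a nuclear receptor gene, was at 339 ± 36.9, 266 ± 26.3 and 186 ± 8.58, with log2 fold changes of -0.89 ± 0.11 against vehicle and -0.54 ± 0.11 against oxamate (adjusted p = 5.26e-06 and 0.00268). Rora was also the 1 call lower with oxamate than with vehicle (-0.35 ± 0.10, adjusted p = 0.049), a call that held without vehicle library 1 but was lost without each of the other 8 libraries (adjusted p from 0.0676 to 0.189) and in DESeq2 (0.0526). Kdm3a, another histone demethylase gene, moved the other way, from 6332 ± 227 with vehicle to 7590.0 ± 98.2 with oxamate and 7601 ± 84.9 with both compounds (0.24 ± 0.06 for both compounds against vehicle, adjusted p = 0.00681, and 0.13 with an adjusted p of 0.121 with the length correction). The 2 classical targets Vegfa and Slc2a1 were near the limit of detection, with means of 4.26 and 1.37 normalized counts.

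**Figure D4:**
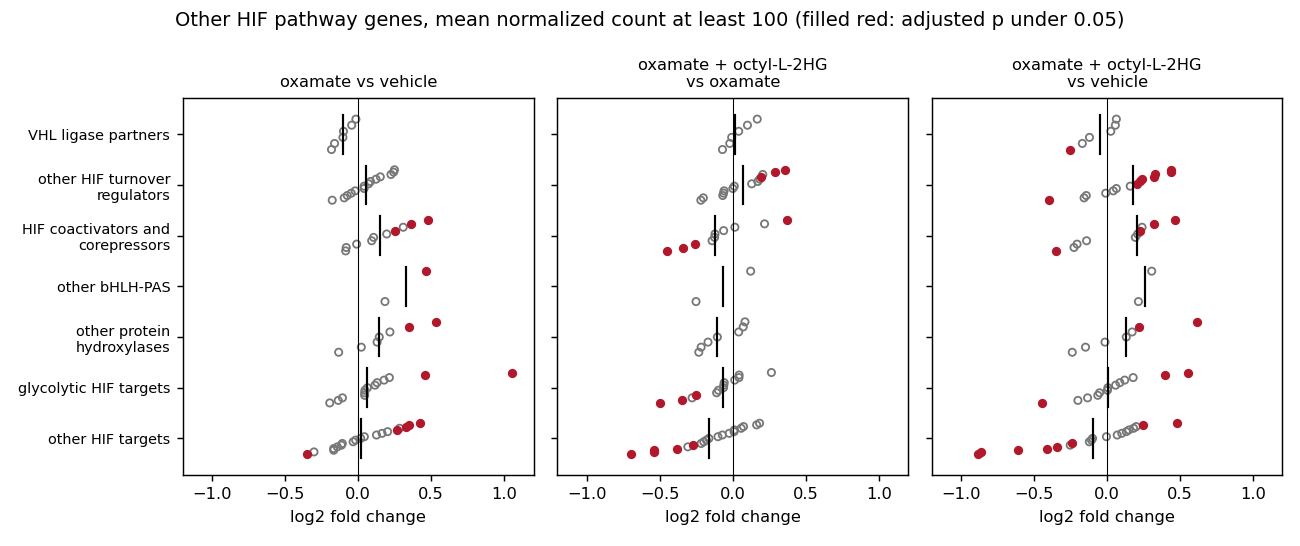
Log2 fold change (x axis) of the 70 genes of the 7 lists that averaged at least 100 normalized counts, in the 3 pairwise comparisons. Each point is 1 gene of a list, red filled points passed an adjusted p under 0.05, and black lines mark list medians. P4ha2, held by the lists of other hydroxylases and of targets outside glycolysis, is drawn in each. Slc2a3, at 1.05 for oxamate against vehicle, lies farthest to the right.

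Vhl had the largest F statistic of the members, and its pattern over the 9 libraries was compared with those of 10714 other genes with a mean of at least 100 counts. The genes most like it by Pearson's r of log2 CPM were 1700027F06Rik (0.989), Tmem247 (0.985), Asb9 (0.983), 4930404N11Rik (0.983) and Rbpms (0.983). Of all genes compared, 263 reached an r of 0.9 and 70 an r of 0.95. Each r rests on the same 9 libraries, which share their depth and group differences, and is a description. Tmem247 had means of 5447 ± 389.5, 4846.5 ± 353 and 3855.5 ± 136 normalized counts in the vehicle, oxamate and combined groups, the same order as Vhl.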

How the data were processed

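Counts were analysed from 9 libraries of RS cells in 3 groups. The authors trimmed the reads with cutadapt 2.10, aligned them with TopHat2 2.1.1 to the mouse genome (GRCm39, Ensembl release 106), and deposited raw counts per gene from htseq-count 2.01. They also deposited a normalized signal, the count divided by the DESeq2 1.36.0 size factor of the library, printed here as normalized counts. No column of values went unused, and 6250 of the 55414 genes listed had no counts. Genes whose counts reached 10 over all libraries entered edgeR 4.0.16, run in R 4.3.3 (TMM scaling, 1 robust quasi-likelihood fit of all libraries, Benjamini-Hochberg adjustment over all genes tested, threshold 0.05). ± beside a log2 fold change is its SE, and beside a mean its SD (n = 3). Alternatives were DESeq2 1.42.0, its size factors or total counts, other filters and thresholds, fits of just the 2 groups at hand, and fits without each library. Exon lengths and overlapping genes came from GENCODE M21, of an earlier build, so no gene coordinates were taken from it. The members and lists were chosen with earlier results of these data known. From each list, genes were named among up to 2 called in each direction per comparison with the largest change and a mean of at least 100 normalized counts. Ldha, Vegfa and Slc2a1 were added once their values had been seen. For the member with the largest F statistic the 5 genes most like it were named.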

Additional observations from a re-analysis of the deposited data

How the results depend on the processing

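The calls of Vhl and Hif1an against vehicle with both compounds, and those of Vhl, Hif1an and Arnt in the test of any difference, held under every alternative that gave a value. Between both compounds and oxamate the 2 calls among the members became 1 with total counts and 1 with the length correction, and ranged from 0 to 2 with 1 library left out. For oxamate against vehicle the count of 1 became 2 at an unadjusted p under 0.05 and ranged from 0 to 2 with 1 library left out. At an adjusted p under 0.01 both counts were 0. Among the other pathway genes, the 14 calls for oxamate against vehicle became 6 in a fit of the 2 groups compared, 33 at an unadjusted p under 0.05 and 4 at an adjusted p under 0.01, and ranged from 6 to 21 with 1 library left out. The 18 calls for both compounds against oxamate became 36 and 11 at those thresholds and ranged from 11 to 28. The cause was not tested.

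Members that passed no test changed sign when single libraries were left out. The log2 fold changes for oxamate against vehicle ranged from -0.183 to 0.229 for Epas1, -0.035 to 0.289 for Hif3a, -0.645 to 0.244 for Egln1 and -0.029 to 0.135 for Egln2. Those for both compounds against oxamate ranged from -0.09 to 0.307 for Hif1a, -0.622 to 0.028 for Egln1 and -0.008 to 0.156 for Egln2, and those for both compounds against vehicle from -0.33 to 0.103 for Epas1 and -0.18 to 0.09 for Hif3a, which was 0.006 with no filter on low counts. No paired analysis was possible because the groups share no replicate numbers. Depth limits Hif1a, Egln1 and Egln3, whose counts did not exceed 14 in any library.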

Other observations

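In all 6 HIF targets with a mean under 100 normalized counts also passed edgeR's test in a comparison. They are outside the naming rule and were picked with their values known. Mif, which encodes a cytokine, had a mean of 73.9 normalized counts and fell with both compounds (log2 fold change -0.98 against vehicle and -0.84 against oxamate, edgeR adjusted p = 0.00013 and 0.00181), and reads of near-identical copies of this gene may have been counted elsewhere. Pdgfb, a growth factor chain, had a mean of 13.3 normalized counts and was higher with oxamate than with vehicle (1.16, edgeR adjusted p = 0.0287) and lower with both compounds than with oxamate (-1.45, adjusted p = 0.00685), while both compounds against vehicle gave -0.285 (adjusted p = 0.687). The first of these calls of Pdgfb was lost without vehicle library 1 or 2 or oxamate library 4 or 6 (adjusted p = 0.134, 0.0879, 0.0535 and 0.072). Angptl4, an inhibitor of lipoprotein lipase with a mean of 10.9, was higher with oxamate than with vehicle (1.38, edgeR adjusted p = 0.0301), a call lost without vehicle library 2 or 3 or any of the 3 oxamate libraries (adjusted p from 0.0543 to 0.16). DESeq2 gave no adjusted p for these differences of Angptl4 and Pdgfb between oxamate and vehicle. Nos2, the inducible nitric oxide synthase gene with a mean of 11.2, was lower with both compounds than with vehicle (-1.58, edgeR adjusted p = 0.00607). Ankrd37, with a mean of 16.4, was also lower (-1.11, edgeR adjusted p = 0.0299), a call lost without vehicle library 2 or 3 or library 7 or 8 (adjusted p from 0.085 to 0.158) and in DESeq2 (0.0587). Eno2, an enolase gene, passed in the same comparison and direction (edgeR adjusted p = 0.00291) with a mean of 2.72 normalized counts, too few for its fold to be given. A further 7 targets with a mean of at least 100 normalized counts passed in a comparison but were left unnamed by the rule. The histone demethylase gene Kdm5b was higher with oxamate than with vehicle (0.33, edgeR adjusted p = 0.0019). Against oxamate 3 were lower with both compounds, namely the ubiquitin ligase subunit gene Wsb1 (-0.54, edgeR adjusted p = 0.0019), the lipid droplet gene Plin2 (-0.27, 0.0138) and the VEGF receptor gene Flt1 (-0.38, 0.0326). Against vehicle 4 were lower with both compounds, namely Ero1a, an oxidase of the endoplasmic reticulum (-0.61, edgeR adjusted p = 0.00399), Higd1a (-0.34, 0.0101), Flt1 (-0.41, 0.0116) and Fam162a (-0.24, 0.0216). Plin2 lost its call without library 7, 8 or 9, Higd1a without vehicle library 1 or library 7, Fam162a without vehicle library 1 or 2 or library 7 or 8, and Flt1 against vehicle without library 8 and against oxamate without vehicle library 3, oxamate library 5 or 6 or library 7 or 8 (adjusted p from 0.0526 to 0.166 over these fits). DESeq2 did not call Flt1 against oxamate (0.0736), and Fam162a was -0.082 with the length correction (adjusted p = 0.463). The calls of Mif, Nos2, Eno2, Wsb1, Kdm5b and Ero1a printed here, and that of Pdgfb between both compounds and oxamate, held without each library in turn.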
